A study of Homo sapiens with 16 samples.

Results

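MYC, MYCN, MAX, MXD1, MXD3, MXD4, MNT, MLX and MGA were followed by name through all deposited count tables of the study. All 9 were found among the 64252 gene identifiers that each table holds, and all 9 had enough counts to be tested in every comparison. Messenger RNA was sequenced from Jurkat and 6T-CEM. Both are long-established lines grown from human leukaemias of T-cell precursors (T-ALL), here carrying a short hairpin RNA, which is the control sh-NC in some groups and the SH2D1A-directed sh-SH2D1A in the rest. The groups were Jurkat day 8 sh-NC, Jurkat day 8 sh-SH2D1A, Jurkat day 10 sh-NC, Jurkat day 10 sh-SH2D1A, 6T-CEM day 5 sh-NC, 6T-CEM day 5 sh-SH2D1A, 6T-CEM day 10 sh-NC and 6T-CEM day 10 sh-SH2D1A, with 2 libraries each and 16 in all. All groups carry a hairpin, and no library without one was analysed here. The labels do not say from which event the days are counted, nor whether the 2 libraries of a group come from separate cultures. They name a single sh-SH2D1A, so an effect of that hairpin on other transcripts cannot be told apart from an effect of lower SH2D1A.

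MYC and MYCN are basic helix-loop-helix leucine zipper transcription factors that bind DNA as dimers with MAX, mostly at E-box sequences, and promote ribosome production, nucleotide synthesis and cell growth. MXD1, MXD3, MXD4 and MNT compete for MAX and for the same sites and recruit histone deacetylases through SIN3 proteins, so they act as antagonists. MLX is the MAX-like partner of the glucose-sensing factors MLXIP (MondoA) and MLXIPL, and MGA pairs with MAX in a variant Polycomb repressive complex. MYC is a well-known target of NOTCH1 in T-ALL.

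SH2D1A encodes SAP, an adaptor of SLAM family receptors, and its level checks the labels. At Jurkat day 8 the sh-NC libraries held 162.6 and 175.1 CPM of it (CPM is the count relative to the TMM-scaled library total) and the sh-SH2D1A libraries 53.8 and 49.4. At Jurkat day 10 it read 175.8 and 203.8 against 60.1 and 65.3. In 6T-CEM it read 188.9 and 200.4 against 55.4 and 62.6 at day 5, and 156.0 and 154.2 against 80.7 and 74.5 at day 10. The knockdown libraries lay below their controls each time, with no overlap. The log2 changes were -1.72 ± 0.07, -1.60 ± 0.10, -1.71 ± 0.12 and -1.0 ± 0.05 in that order (± is the standard error). Their adjusted p were 3.00e-05, 6.30e-05, 0.00191 and 1.14e-05 by edgeR's quasi-likelihood test with Benjamini-Hochberg adjustment over all genes tested. Every adjusted p here comes from that test, except that ranges and extremes over alternatives also take in DESeq2's Wald test. Total counts ranged from 27217899 to 33788024 per library. The 6T-CEM day 5 sh-SH2D1A libraries differed from each other most, with a chi-square statistic of 24.6 per degree of freedom where the other pairs had 5.01 to 10.2, and mitochondrial genes took 7.98 and 9.19% of their counts against 7.44 and 7.63% with sh-NC. The summed level of 9 T-lineage markers was 1672 to 2822 CPM, and sums over markers of B cells (5 genes), myeloid (5), epithelial and packaging (5), fibroblast (4) and erythroid cells (4) reached at most 74.9, 2.87, 5.72, 12.7 and 2.71 CPM. CD79A alone reached 74.0 CPM.

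Promoter windows from RefSeq (GRCh38.p14), each 300 bases and beginning 250 bases before an annotated start, were searched for the canonical E-box CACGTG, which reads the same on both strands. It occurred in 2548 of 35116 such windows (7.26%). Some genes have several windows, and counted by gene, 12.4% of the 11589 genes with a window that were tested at Jurkat day 8 held it in at least 1. Of 8 members whose windows were searched, MXD4, MNT and MLX (37.5% of genes) held it once each, at window positions 13, 58 and 201. MYCN, MAX, MXD1, MXD3 and MGA had no match, and the window of MYC was not used here. The windows of the 3 members with a match, and that of MYCN, the member with the largest change after sh-SH2D1A, are shown 5′ to 3′ on the strand of the gene, with the E-box in capitals. They lie at chr4:2262060-2262359 (minus strand) for MXD4, chr17:2401011-2401310 (minus) for MNT, chr17:42566850-42567149 (plus) for MLX and chr2:15940300-15940599 (plus) for MYCN. A match describes these letters and is not a measured binding site.
MXD4: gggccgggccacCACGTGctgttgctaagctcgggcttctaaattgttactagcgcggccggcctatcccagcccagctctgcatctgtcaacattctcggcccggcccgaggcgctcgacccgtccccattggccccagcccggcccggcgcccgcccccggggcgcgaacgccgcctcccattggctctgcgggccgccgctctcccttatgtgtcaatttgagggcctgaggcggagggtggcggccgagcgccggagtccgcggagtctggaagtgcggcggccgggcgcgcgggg
MNT: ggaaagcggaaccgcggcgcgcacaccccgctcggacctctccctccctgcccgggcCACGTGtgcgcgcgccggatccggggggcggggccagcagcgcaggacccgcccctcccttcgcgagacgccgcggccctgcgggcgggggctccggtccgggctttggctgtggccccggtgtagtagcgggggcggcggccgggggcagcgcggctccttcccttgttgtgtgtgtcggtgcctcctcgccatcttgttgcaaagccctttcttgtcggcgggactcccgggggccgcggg
MLX: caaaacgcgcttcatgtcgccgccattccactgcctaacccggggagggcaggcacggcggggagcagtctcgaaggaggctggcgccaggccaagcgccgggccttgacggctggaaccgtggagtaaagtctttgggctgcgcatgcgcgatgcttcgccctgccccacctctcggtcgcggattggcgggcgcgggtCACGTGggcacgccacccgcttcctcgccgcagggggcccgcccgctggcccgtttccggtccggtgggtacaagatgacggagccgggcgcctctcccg
MYCN: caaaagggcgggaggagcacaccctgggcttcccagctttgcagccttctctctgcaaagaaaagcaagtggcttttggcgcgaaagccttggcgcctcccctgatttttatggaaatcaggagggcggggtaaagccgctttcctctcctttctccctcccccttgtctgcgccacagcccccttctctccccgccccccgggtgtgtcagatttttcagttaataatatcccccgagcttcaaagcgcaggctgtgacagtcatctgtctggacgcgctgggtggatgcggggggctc

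Levels between genes were compared per length, as CPM per kilobase of the union of the gene's GENCODE 29 exons (hg38), averaged over the 16 libraries. MYC was the most abundant member at 81.4 CPM per kb. MAX followed at 23.9, MLX at 15.7, MXD3 at 13.8, MXD4 at 9.86, MYCN at 7.25, MGA at 6.38, MNT at 5.48 and MXD1 at 2.82 CPM per kb. MYC and MAX kept ranks 1 and 2 when the longest transcript gave the length, whereas MYCN went from rank 6 to 8 and MXD3 from 4 to 3. Gene positions below are in hg38. The level of a member between groups is given in TMM-scaled CPM, and every change is a log2 ratio of sh-SH2D1A over sh-NC unless stated otherwise. Whether the sh-NC and sh-SH2D1A arms overlap is given as a description. With 2 libraries each, arms can readily separate for a gene that does not change. The share of all genes whose arms separated was not counted.

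**Figure D1:**
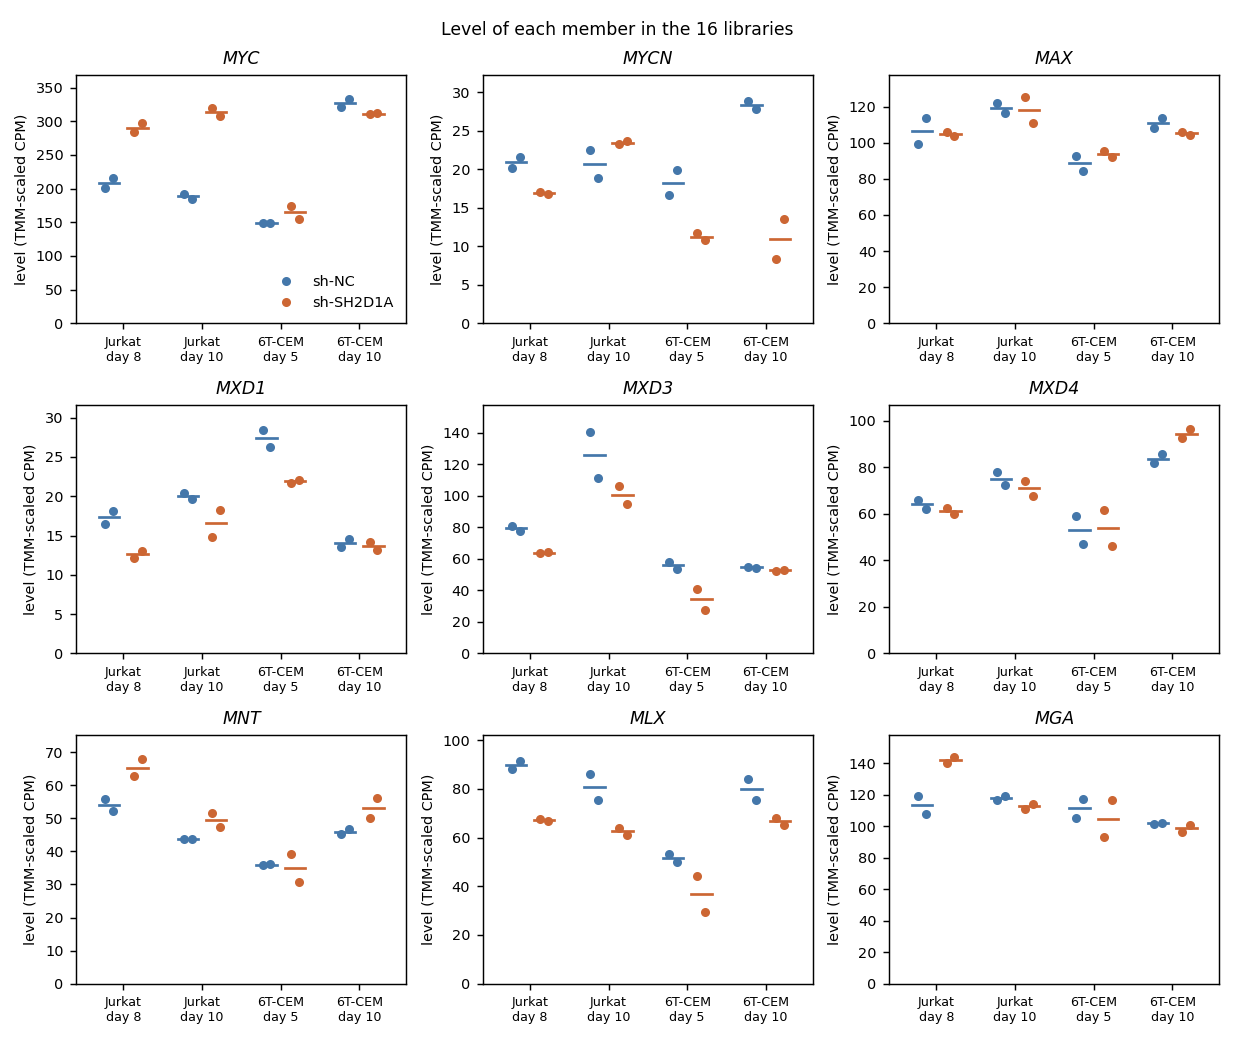
Level of each of the 9 members in TMM-scaled CPM (vertical axes, each starting at 0) in the 16 libraries, by line and day, with sh-NC in blue and sh-SH2D1A in orange. Points are libraries and horizontal bars are means of 2. MYC is higher with sh-SH2D1A on both Jurkat days. MYCN is lower on both 6T-CEM days, a difference that was called at day 10 only.

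MYC, the growth-promoting factor at the centre of the network (ENSG00000136997), rose in Jurkat and was not called in 6T-CEM. At Jurkat day 8 the control libraries read 201.5 and 216.3 CPM and the sh-SH2D1A libraries 284.4 and 296.7. At day 10 the controls read 192.1 and 185.0 and the sh-SH2D1A libraries 319.1 and 308.3. Both sh-SH2D1A libraries were therefore above both controls on each day. The changes were 0.47 ± 0.05 (1.38-fold, adjusted p = 0.00260) at day 8 and 0.74 ± 0.08 (1.67-fold, adjusted p = 0.000760) at day 10. In bulk RNA, more cells with the transcript and more transcript per cell cannot be told apart. At 6T-CEM day 5 the controls read 148.2 and 149.3 and the sh-SH2D1A libraries 174.4 and 155.1. At day 10 the controls read 320.8 and 332.7 and the sh-SH2D1A libraries 310.3 and 312.5. The arms did not overlap on either day but lay on opposite sides, and neither difference passed the test. The changes were 0.16 ± 0.12 (95% interval -0.11 to 0.42, adjusted p = 0.544) and -0.07 ± 0.03 (-0.14 to 0.01, adjusted p = 0.214). The day 8 call held in all 10 alternatives run, with adjusted p between 3.43e-12 and 0.0342. The day 10 call was lost in 1 of 10, without a filter on low counts (adjusted p = 0.155), where edgeR called 0 of 34173 genes although 3533 had an unadjusted p under 0.05 (DESeq2, which ran with the filter, called 1052).

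The groups of MYC ran from 6T-CEM day 10 sh-NC, at 326.7 ± 8.45 CPM (SD, n = 2), through Jurkat day 10 sh-SH2D1A at 313.7, 6T-CEM day 10 sh-SH2D1A at 311.4 and Jurkat day 8 sh-SH2D1A at 290.6, to Jurkat day 8 sh-NC at 208.9, Jurkat day 10 sh-NC at 188.6, 6T-CEM day 5 sh-SH2D1A at 164.7 and 6T-CEM day 5 sh-NC at 148.7. Of neighbours in this order, only Jurkat day 10 sh-SH2D1A and 6T-CEM day 10 sh-SH2D1A overlapped. The lowest 6T-CEM day 10 sh-NC library, at 320.8 CPM, was barely above the highest of Jurkat day 10 sh-SH2D1A, at 319.1. How often such groups separate over all genes was not counted. Neighbours that differ in line or day may also differ by a batch.

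MYCN, the paralogue better known from neuroblastoma (ENSG00000134323, chromosome 2, 15940564 to 15947007, plus strand), fell in 6T-CEM at day 10. Its controls read 28.9 and 27.9 CPM there and the sh-SH2D1A libraries 8.32 and 13.6, that is 859 and 889 counts against 269 and 453. The change was -1.37 ± 0.19 (0.387-fold, adjusted p = 0.00246). It was the largest change of any member after sh-SH2D1A, in either direction. At day 5 MYCN read 16.7 and 19.9 against 11.7 and 10.8, a change of -0.69 ± 0.20 that did not pass (adjusted p = 0.130). In Jurkat it read 20.2 and 21.6 against 17.0 and 16.8 at day 8, and 22.5 and 18.9 against 23.3 and 23.7 at day 10. The arms did not overlap on either Jurkat day, lower with sh-SH2D1A at day 8 and higher at day 10, with changes of -0.32 ± 0.10 (adjusted p = 0.0880) and 0.19 ± 0.13 (adjusted p = 0.50). The 6T-CEM day 10 call was lost in 1 of 10 alternatives, without a filter on low counts (adjusted p = 0.0514), and the change lay between -1.77 and -1.06 over them. MYCNOS, an antisense gene that covers 3.77% of the MYCN exons, had at most 49 counts in a library. Its changes were -0.80 ± 0.46 and -0.35 ± 0.42 at Jurkat days 8 and 10, and -1.88 ± 0.78 and -1.47 ± 0.46 at 6T-CEM days 5 and 10. None of these was called, but their mean was called lower (-1.13 ± 0.24, adjusted p = 0.00400). The part of MYCNOS in the changes of MYCN was not tested.

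MAX, the shared partner (ENSG00000125952, chromosome 14, 65006174 to 65102695, minus strand), was not called in any comparison of sh-SH2D1A with sh-NC. Its libraries lay between 99.1 and 125.5 CPM in Jurkat and between 84.5 and 113.6 in 6T-CEM. The 95% intervals of its changes were -0.19 to 0.13 and -0.20 to 0.19 for Jurkat days 8 and 10, then -0.18 to 0.37 and -0.17 to 0.02 for 6T-CEM days 5 and 10. The arms overlapped except at 6T-CEM day 10, where both sh-SH2D1A libraries were the lower ones.

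Among the antagonists, MXD1 and MXD3 fell and MNT rose in Jurkat at day 8, and MXD4 rose in 6T-CEM at day 10. MXD1 (ENSG00000059728, chromosome 2, 69897688 to 69942945, plus strand), which is induced in differentiating blood cells, fell from 16.5 and 18.2 CPM to 12.2 and 13.1 at Jurkat day 8, by 0.46 ± 0.12 on the log2 scale (adjusted p = 0.0466). At Jurkat day 10 it read 20.4 and 19.7 against 14.9 and 18.2 (-0.28 ± 0.14, adjusted p = 0.346). In 6T-CEM it read 28.5 and 26.2 against 21.7 and 22.1 at day 5 (-0.31 ± 0.17, adjusted p = 0.387) and 13.5 and 14.5 against 14.2 and 13.1 at day 10 (-0.03 ± 0.12, adjusted p = 0.897). The sh-SH2D1A libraries were thus below their controls in all but the last pair of arms, where they overlapped. The day 8 call was lost in 5 of 10 alternatives, among them those without sh-NC replicate 2, sh-SH2D1A replicate 1 or sh-SH2D1A replicate 2, with a highest adjusted p of 0.187.

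MXD3 (ENSG00000213347, chromosome 5, 177301461 to 177312757, minus strand) is the family member linked to S phase in dividing cells. In Jurkat it read 80.7 and 77.8 CPM against 63.6 and 64.5 at day 8, a fall of -0.32 ± 0.06 (adjusted p = 0.0133), and 140.4 and 111.1 against 106.1 and 94.5 at day 10, a change of -0.32 ± 0.11 (adjusted p = 0.159). In 6T-CEM it read 58.0 and 53.8 against 40.9 and 27.8 at day 5 (-0.69 ± 0.19, adjusted p = 0.106) and 55.1 and 54.0 against 52.6 and 52.8 at day 10 (-0.05 ± 0.05, adjusted p = 0.633). The sh-SH2D1A libraries were below the controls in every one of these comparisons, though only the change at Jurkat day 8 passed the test. The separation at 6T-CEM day 10 was a change of only -0.05 ± 0.05. The day 8 call was lost in 3 of 10 alternatives, with all 16 libraries in the fit and without either sh-SH2D1A library, with a highest adjusted p of 0.236. The exons of MXD3 share 22.5% of their length with PRELID1 on the other strand and 18% with RAB24 on the same strand, so its counts are uncertain, since the strand setting is not given in the sources used here. PRELID1 rose in Jurkat at day 8 (0.37 ± 0.07, adjusted p = 0.0184) and in 6T-CEM at day 10 (0.27 ± 0.04, adjusted p = 0.00536), opposite in sign to MXD3. RAB24 had the sign of MXD3, with -0.53 ± 0.15 at Jurkat day 8 (adjusted p = 0.0647) and -0.62 ± 0.22 at 6T-CEM day 5 (adjusted p = 0.203), and both sh-SH2D1A libraries below both controls each time. It was not called in any of the 4 comparisons but was called lower in their mean (-0.32 ± 0.08, adjusted p = 0.0113). The part of RAB24 in the changes of MXD3 was not tested.

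MXD4 (ENSG00000123933, chromosome 4, 2247432 to 2262294, minus strand) rose from 81.7 and 85.8 CPM to 92.4 and 96.5 at 6T-CEM day 10, by 0.18 ± 0.05 (adjusted p = 0.0386). Its arms overlapped in the other 3 comparisons, with changes of -0.08 ± 0.07 at Jurkat day 8, -0.08 ± 0.09 at Jurkat day 10 and 0.03 ± 0.18 at 6T-CEM day 5. The call was lost in 5 of 10 alternatives, among them those without sh-NC replicate 1, sh-NC replicate 2 or sh-SH2D1A replicate 2, with a highest adjusted p of 0.572. MNT (ENSG00000070444, chromosome 17, 2384060 to 2401118, minus strand), the antagonist found in most tissues, read 55.8 and 52.1 against 62.8 and 67.8 in Jurkat at day 8, a rise of 0.27 ± 0.07 (adjusted p = 0.0489). It read 43.7 and 43.7 against 51.6 and 47.4 at day 10 (0.18 ± 0.09, adjusted p = 0.344), and 45.3 and 46.6 against 50.1 and 56.1 in 6T-CEM at day 10 (0.21 ± 0.07, adjusted p = 0.0808). In these 3 comparisons both sh-SH2D1A libraries were above both controls, while at 6T-CEM day 5 the arms overlapped. The day 8 call of MNT was lost in 6 of 10 alternatives, among them those without sh-NC replicate 2 or either sh-SH2D1A library, with a highest adjusted p of 0.270.

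MLX, the partner of MLXIP (ENSG00000108788, chromosome 17, 42567068 to 42573239, plus strand), was lower with sh-SH2D1A in every comparison and passed the test in 2. In Jurkat it read 87.9 and 91.4 CPM against 67.4 and 66.8 at day 8, and 85.9 and 75.4 against 64.0 and 61.1 at day 10. In 6T-CEM it read 53.1 and 50.1 against 44.1 and 29.5 at day 5, and 84.1 and 75.3 against 67.9 and 65.3 at day 10. No arm overlapped its control. MLX fell by 0.43 ± 0.06 on the log2 scale in Jurkat at day 8 (adjusted p = 0.00389) and by 0.26 ± 0.06 in 6T-CEM at day 10 (adjusted p = 0.0277). The changes at Jurkat day 10 (-0.36 ± 0.09, adjusted p = 0.0619) and 6T-CEM day 5 (-0.48 ± 0.19, adjusted p = 0.248) did not pass. The Jurkat day 8 call was lost in 1 of 10 alternatives, with all 16 libraries in the fit (adjusted p = 0.0801). The 6T-CEM day 10 call was lost in 4 of 10, among them those without sh-NC replicate 1 or sh-SH2D1A replicate 2, with a highest adjusted p of 0.381. PSMC3IP overlaps 18.1% of the MLX exons on the other strand and was not called in any of the 4 comparisons.

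MGA (ENSG00000174197, chromosome 15, 41621224 to 41773081, plus strand), a very large protein with both a T-box and a MAX-binding domain, rose in Jurkat at day 8. It went from 119.3 and 107.4 CPM to 139.9 and 143.6, without overlap, by 0.31 ± 0.06 (adjusted p = 0.0199). Its changes elsewhere were -0.06 ± 0.08 at Jurkat day 10 and, for 6T-CEM, -0.08 ± 0.14 at day 5 and -0.04 ± 0.04 at day 10, none of which passed. The day 8 call was lost in 4 of 10 alternatives, among them those without either sh-SH2D1A library, with a highest adjusted p of 0.134.

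**Figure D2:**
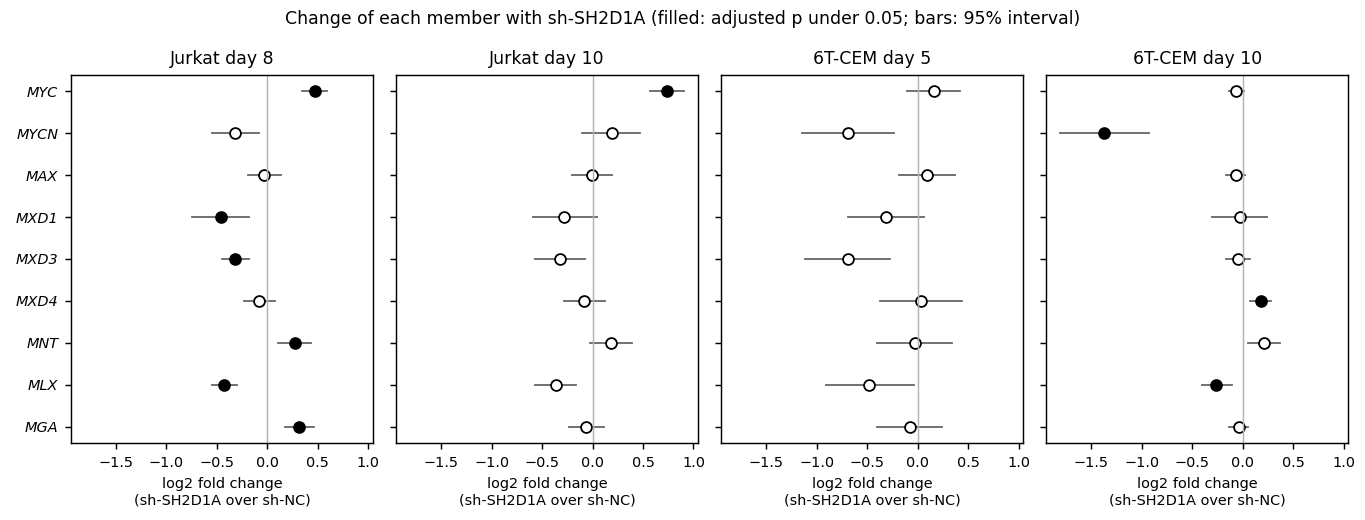
Log2 fold change of sh-SH2D1A over sh-NC (horizontal axis) for the 9 members in the 4 comparisons, with 95% intervals as bars and filled points where the adjusted p was under 0.05. MYC is the only filled point in Jurkat at day 10, and MYCN in 6T-CEM at day 10 lies farthest from 0.

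Counted together, 6 of 9 members were called in Jurkat at day 8 (3 higher, 3 lower), where 12.4% of all 19266 genes tested were called. In Jurkat at day 10, 1 of 9 was called, against 3.78% of all genes. For 6T-CEM day 5, edgeR called 0 of 9, against 2.11% of all genes, while 3 members had an unadjusted p under 0.05 (MYCN, MXD3 and MLX) and DESeq2 called 2. For 6T-CEM day 10, 3 of 9 were called (1 higher, 2 lower), against 14.0% of all genes. The count in Jurkat at day 8 went to 4 without sh-NC replicate 2 and to 2 without either sh-SH2D1A library. In Jurkat at day 10 it went to 3 without sh-NC replicate 2. In 6T-CEM it went to 3 at day 5 without sh-SH2D1A replicate 1 and to 1 without replicate 2. At 6T-CEM day 10 it went to 1 without sh-NC replicate 1 or sh-SH2D1A replicate 2, and to 2 without sh-NC replicate 2.

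Whether the response to sh-SH2D1A differed between lines was tested at day 10, the day both lines share, in a fit of all 16 libraries. The difference, Jurkat minus 6T-CEM, was called for 2 of 9 members against 0.812% of 22032 genes. For MYC it was 0.80 ± 0.09 (adjusted p = 0.000601) and for MYCN 1.56 ± 0.25 (adjusted p = 0.00837). Both calls held in all 22 alternatives run, with differences of 0.76 to 0.83 and of 1.22 to 1.93. Many of these left out a library of day 5 or day 8, which does not enter the difference and can change it little. The fall of SH2D1A itself also differed, by -0.60 ± 0.13 (adjusted p = 0.0405), being deeper in Jurkat, and its part in the differences of MYC and MYCN was not tested. Between days, edgeR called 0 of 9 members for the change in the response of Jurkat, against 0.00454% of genes (1 gene), with 2 members at an unadjusted p under 0.05 and 0 called by DESeq2. It called 0 of 9 for 6T-CEM against 0.681% of genes, with 3 members at an unadjusted p under 0.05 and 1 called by DESeq2. The mean of the 4 changes was called for 6 of 9 members, against 23.0% of genes. MYC (0.32 ± 0.03, adjusted p = 7.32e-06) and MNT (0.16 ± 0.05, adjusted p = 0.0463) were higher, and MYCN (-0.55 ± 0.09), MLX (-0.38 ± 0.07), MXD3 (-0.35 ± 0.07) and MXD1 (-0.27 ± 0.06) were lower. The call of MNT was lost in 15 of 22 alternatives, 14 of them the omission of a single library, with adjusted p up to 0.128. Those 14 were every library except 6T-CEM day 5 sh-SH2D1A replicate 2 and 6T-CEM day 10 sh-SH2D1A replicate 1.

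The members also moved in the control cells. In 6T-CEM sh-NC, 7 of 9 members differed between day 10 and day 5, against 39.9% of all genes. MYC rose by 1.14 ± 0.07 (adjusted p = 3.65e-08), MXD4 by 0.66 ± 0.12, MYCN by 0.64 ± 0.18, MLX by 0.63 ± 0.13, MNT by 0.35 ± 0.11 and MAX by 0.32 ± 0.08. MXD1 fell by 0.97 ± 0.12 on the log2 scale (adjusted p = 2.82e-05), from 28.5 and 26.2 to 13.5 and 14.5 CPM. The call of MYCN was lost without sh-NC replicate 1 of day 5 or of day 10, that of MAX without sh-NC replicate 2 of day 5, and that of MNT without any 1 of these 4 libraries (adjusted p up to 0.0852, 0.0656 and 0.0662). In Jurkat sh-NC, 1 of 9 differed between day 10 and day 8, against 3.40% of all genes. This was MXD3, which rose by 0.67 ± 0.14 (adjusted p = 0.0191), a call lost without sh-NC replicate 1 or 2 of day 8 or replicate 1 of day 10 (adjusted p up to 0.183). Between the lines at day 10 with sh-NC, 3 of 9 differed, against 36.6% of all genes. MYC was lower in Jurkat by -0.79 ± 0.07 (adjusted p = 4.30e-07), while MXD1 (0.52 ± 0.12, adjusted p = 0.00427) and MXD3 (1.21 ± 0.14, adjusted p = 1.15e-05) were higher. Each line and day was deposited as a table of its own, so line and day cannot be told apart here from any batch that goes with a table.

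MYC was also set against its antagonists within each library, as its CPM per kb over the sum of those of MXD1, MXD3, MXD4 and MNT. In Jurkat the ratio was 1.97 and 2.2 in the day 8 controls and 3.13 and 3.21 after sh-SH2D1A. At day 10 it was 1.38 and 1.54 in the controls and 2.70 and 2.84 after sh-SH2D1A. In 6T-CEM it was 1.75 and 1.96 against 2.36 and 2.73 at day 5, and 3.61 and 3.66 against 3.31 and 3.21 at day 10. The ratio was higher with sh-SH2D1A in the first 3 comparisons and lower in the last, with no overlap of arms. The differences of the mean log2 ratio were 0.60, 0.92, 0.45 and -0.16, given as a description, with no test run. Without MXD3, whose counts share exons with other genes, they were 0.47, 0.77, 0.23 and -0.23. The level of the ratio depends on the length used. With the longest transcript it was lower in every library, for example 0.879 and 1.001 in the Jurkat day 10 controls and 1.749 and 1.855 after sh-SH2D1A.

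**Figure D3:**
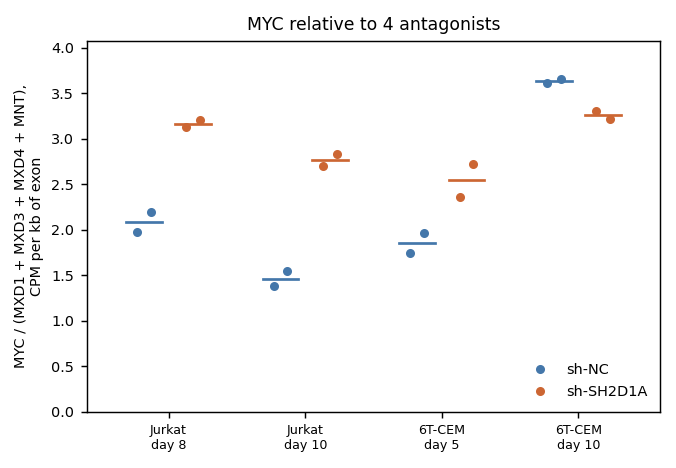
Ratio of MYC to the summed MXD1, MXD3, MXD4 and MNT in each library, all in CPM per kb of exon (vertical axis from 0), by line and day. Points are libraries and bars are means of 2. Both sh-SH2D1A points lie above both sh-NC points except in 6T-CEM at day 10, where they lie below.

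Genes that MYC is known to activate were described next, 51 of them, with roles in ribosome assembly, nucleotide supply, translation and metabolism. In Jurkat at day 8, 27 rose and 3 fell, with a median change of 0.23 against 0.00 over all genes, of which 5.23% rose and 7.13% fell. Those named by the lowest adjusted p were RRP12 (0.62 ± 0.07, adjusted p = 0.00188) and MYBBP1A (0.51 ± 0.05, adjusted p = 0.00147) of ribosome maturation, IFRD2 (0.56 ± 0.06) and POLR1A, the catalytic subunit of RNA polymerase I (0.54 ± 0.06). In Jurkat at day 10, 5 rose and 1 fell (median 0.17), against 1.26 and 2.52% of all genes. TFRC, the transferrin receptor, rose by 0.58 ± 0.08 (adjusted p = 0.00290), IFRD2 by 0.58 ± 0.11 and WDR12 by 0.49 ± 0.09, and SRM, which makes spermidine, fell by 0.50 ± 0.10 on the log2 scale. At 6T-CEM day 5, 1 rose and 3 fell (median 0.08), against 0.606 and 1.51% of all genes. At day 10, 4 rose and 9 fell (median -0.03), against 6.61 and 7.42%. SRM (-0.53 ± 0.04), the glycolytic enzymes LDHA (-0.44 ± 0.03) and ENO1 (-0.23 ± 0.02) and the telomerase gene TERT (-0.53 ± 0.09) fell there, with adjusted p between 4.69e-05 and 0.00465. SRM was called lower in all 4 comparisons, with changes of -0.31 ± 0.07, -0.50 ± 0.10, -0.90 ± 0.14 and -0.53 ± 0.04.

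In the control cells the same list had 43 members higher and 5 lower at day 10 than at day 5 in 6T-CEM (median 0.78), against 19.3 and 20.6% of all genes. PES1 (1.20 ± 0.08), PHB1 (0.99 ± 0.07) and nucleolin, NCL (0.83 ± 0.05) rose, and LDHA fell by 1.04 ± 0.07 on the log2 scale. In Jurkat sh-NC, 31 were called between day 10 and day 8, each lower at day 10 (median -0.33), where 1.83% of all genes were higher and 1.57% lower. MYC itself had a change of -0.15 ± 0.07 there, which did not pass (adjusted p = 0.267). Jurkat had 7 higher and 38 lower than 6T-CEM at day 10 (median -0.40), against 18.4 and 18.2%. Of 39 members with a promoter window, 51.3% held CACGTG, against 12.4% of the genes tested in Jurkat at day 8. Among the genes called there the share was 18.1% of those that rose and 13.1% of those that fell. It was 19.1 and 14.0% at Jurkat day 10, 7.69 and 14.2% at 6T-CEM day 5 and 12.9 and 13.1% at 6T-CEM day 10, for genes that rose and fell in turn. The shares of genes that rose rest on few genes at Jurkat day 10 (33 of 173) and 6T-CEM day 5 (6 of 78). Called members of the list that have a window are counted among these genes. In Jurkat sh-NC it was 11.6% of genes higher at day 10 and 26.5% of those lower, and in 6T-CEM sh-NC 16.5 and 10.8%. Between the lines it was 11% of genes higher in Jurkat and 15.4% of those lower. Over genes tested the share was 12.2 to 12.5%.

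**Figure D4:**
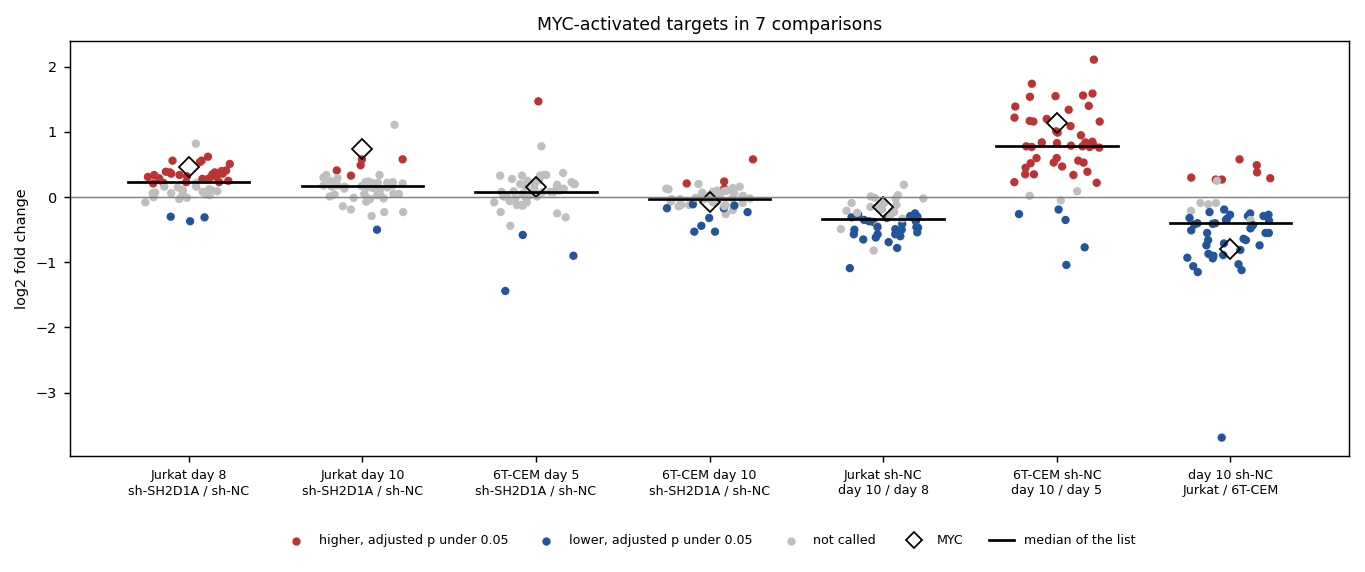
Log2 fold change (vertical axis) of the 51 MYC-activated genes in 7 comparisons, with red points called higher, blue points called lower and grey points not called. The diamond is MYC and the bar is the median of the list, which runs from -0.40 between the lines to 0.78 between the days of 6T-CEM.

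Of 18 tested genes that MYC is known to repress, 7 were called at Jurkat day 8 (median -0.14) and 2 at day 10 (median -0.23), each of them lower with sh-SH2D1A, where 7.13 and 2.52% of all genes were called lower. The leukocyte integrin gene ITGAL fell by 0.68 ± 0.05 and 0.82 ± 0.08 on the log2 scale, and the stress-responsive NDRG1 by 0.76 ± 0.08 and 0.59 ± 0.09. CDKN1B, which encodes the cell cycle inhibitor p27, fell by 0.54 ± 0.05 at day 8. At 6T-CEM day 5 edgeR called 0 of 18 (median -0.35), with 7 at an unadjusted p under 0.05, and DESeq2 called 4 (1 higher, 3 lower). At day 10, 3 rose and 4 fell (median -0.10), against 6.61 and 7.42% of all genes, among them ITGAL (-0.36 ± 0.05), CDKN1B (-0.44 ± 0.05) and KLF2 (-1.29 ± 0.12), which fell, and DUSP2 (0.45 ± 0.08), which rose.

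Targets of MLX with MLXIP numbered 5 among the genes tested in each table, and TXNIP, the best known, did not pass the filter on low counts there. Their median changes were -0.53 and -0.35 at Jurkat days 8 and 10, and -0.13 and 0.08 at 6T-CEM days 5 and 10. HK2, which encodes a hexokinase, fell in all 4 comparisons. Its changes were, in the same order, -0.57 ± 0.08, -0.51 ± 0.09, -0.90 ± 0.12 and -0.24 ± 0.05, with adjusted p = 0.00436, 0.0106, 0.00958 and 0.0134. PFKFB3, a regulator of glycolysis, fell in Jurkat by 0.53 ± 0.05 and 0.41 ± 0.09 on the log2 scale and was not called in 6T-CEM. ARRDC4 fell in 6T-CEM at day 10 by 0.66 ± 0.10. ARRDC3 and KLF10 were not called in any of the 4 comparisons.

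Other network proteins and cofactors, of which 28 were tested, had 5 called at Jurkat day 8 (median 0.09), each higher, where 5.23% of all genes were called higher and 12.4% in either direction. These included MLXIP (0.30 ± 0.07) and TRRAP (0.28 ± 0.07). At Jurkat day 10 and 6T-CEM day 5, edgeR and DESeq2 both called 0 (medians 0.01 and -0.05), with 4 and 1 at an unadjusted p under 0.05 by edgeR. At 6T-CEM day 10, 3 rose and 1 fell (median -0.01), where 14.0% of all genes were called, led by HDAC1 (0.33 ± 0.03, adjusted p = 0.000277). Of 25 genes for turnover of the MYC protein, 2 rose and 2 fell in Jurkat at day 8, 1 fell at day 10, and 2 rose and 4 fell in 6T-CEM at day 10, with medians of 0.00, -0.04 and 0.00. Over all genes, 12.4, 3.78 and 14.0% were called in these comparisons in either direction. The ubiquitin ligase gene HUWE1 rose in Jurkat at day 8 (0.36 ± 0.09), and SENP1 fell at Jurkat day 10 (-0.40 ± 0.09) and 6T-CEM day 10 (-0.31 ± 0.05). At 6T-CEM day 5, edgeR and DESeq2 both called 0 of 25 (median -0.07), with 4 at an unadjusted p under 0.05 by edgeR.

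Of 25 tested genes that act upstream of MYC in T-ALL, 4 rose and 7 fell at Jurkat day 8 (median 0.01) and 2 rose and 4 fell at day 10 (median -0.03). For 6T-CEM, 1 was called at day 5, STAT5B, which fell (median -0.20), and 5 rose and 13 fell at day 10 (median -0.19). Of all genes, 12.4, 3.78, 2.11 and 14.0% were called in the 4 comparisons in that order. TCF7, a T-lineage factor, rose in Jurkat by 0.52 ± 0.05 and 0.50 ± 0.07, NOTCH1 fell there at day 10 (-0.40 ± 0.08, adjusted p = 0.0233), and so did DTX1, a NOTCH target (-0.68 ± 0.08). At Jurkat day 8 GATA3 (-0.47 ± 0.06) and STAT5B (-0.46 ± 0.06) fell, and MAML1 rose (0.34 ± 0.05). In 6T-CEM at day 10, MYB (-0.63 ± 0.03), GATA3 (-0.66 ± 0.04) and TAL1 (-0.50 ± 0.04), which form a core circuit in many T-ALL cells, fell, and NOTCH3 rose (0.65 ± 0.06). T-lineage markers moved in the same comparisons. CD2 fell in Jurkat by 0.77 ± 0.07 and 0.74 ± 0.08 on the log2 scale and CD7 by 0.65 ± 0.07 and 0.52 ± 0.12, and 4 and 2 of 9 T-lineage markers were called at days 8 and 10, each lower, where 7.13 and 2.52% of all genes were called lower. At 6T-CEM day 10, 3 of 9 rose and 2 fell, against 6.61 and 7.42% of all genes. PTPRC (0.28 ± 0.03) and CD3G (0.17 ± 0.03) were among those that rose, and CD3D (-0.47 ± 0.04) and CD7 (-0.74 ± 0.12) fell. Markers of other cell types were called there too. The B cell markers CD79A (-0.65 ± 0.08, adjusted p = 0.00130) and CD79B (-1.09 ± 0.26) and the fibroblast marker PDGFRB (-1.08 ± 0.28) fell, and the erythroid HBA1 rose (1.61 ± 0.29), the last 3 at mean levels of 1.01, 2.13 and 0.529 CPM over the 16 libraries. The part of these markers in the changes of the network was not tested.

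After removing the mean of each line and day, the genes whose log2 CPM was most like that of MYC over the 16 libraries were NIBAN1 (Pearson r = 0.96), FHIT (0.96), TCF7 (0.95), NCAM1 (0.94) and PRMT5 (0.94), out of 13793 compared. The most opposite were SNX20, APOL6 and SLFN5 (-0.94 each), RASSF5 (-0.93) and LCP1 (-0.92). Among members, MYC varied most closely with MXD1 (r = -0.75), MNT (0.61) and MLX (-0.57), and was near 0 with MYCN (0.01) and MAX (0.08). MXD3 and MLX varied together (0.93), and MXD1 varied with MLX (0.73) and MXD3 (0.66). These values describe 16 points that share their libraries and their arms, and the 6T-CEM day 5 sh-SH2D1A pair, in which MXD3 and MLX were both lower in replicate 2, is among them.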

How the data were processed

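RNA sequencing counts of Jurkat and 6T-CEM with sh-NC or sh-SH2D1A were analysed. The authors deposited whole-number, unnormalised counts per Ensembl gene in 4 tables that split the libraries by line and day. HISAT2 2.2.0, StringTie and hg38 are named per the submitters' processing notes. Which annotation was used, whether strand was considered and which program wrote the counts is not given in the sources used here. Counts derived from StringTie coverage would be rounded estimates. Totals per library ranged from 27217899 to 33788024, and 40995 of 64252 identifiers have a symbol.

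The members, gene lists, tests and the rule for named genes were chosen with earlier results of these data known. That rule took the members, SH2D1A, up to 4 called genes with the lowest adjusted p per list and comparison, and the 5 genes most and least like MYC. SRM at Jurkat day 8, TXNIP, the uncalled MLX targets and the genes that overlap members were named outside it, after their values were seen.

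Each table was fitted alone with edgeR 4.0.16 under R 4.3.3 (filterByExpr, minimum count 10, TMM scaling, glmQLFit, two-sided quasi-likelihood test, Benjamini-Hochberg adjustment, calls at an adjusted p under 0.05). Contrasts across tables came from 1 fit of 16 libraries with 8 group means. The standard error is the absolute log2 change over the square root of F. Log2 CPM used a prior count of 2, and likeness to MYC required a mean of at least 1 CPM. Spread was taken from 2 libraries per group, so a p-value reflects differences between these libraries alone, which may be technical. Replicate numbers were not used as pairs. Alternatives were DESeq2 1.42.0 size factors, its Wald test, other filters, a replicate block, all libraries in 1 fit and omission of each library.

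The fits were tested on simulated data. When they were simulated with spread set by the mean trend, the share of false calls was near the threshold or modestly above it. With spread that varied between genes, as it was first simulated, false calls exceeded the threshold in all 5 comparisons simulated. The trend version was added after that excess had been seen. Calls from 2 against 2 libraries may therefore include more false ones than the threshold states, most of all those near it.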

Additional observations from a re-analysis of the deposited data

Results flagged for a closer look

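Differences in the response to sh-SH2D1A between lines or days that passed the test of the difference itself, in the fit of 16 libraries by edgeR, are listed here. At day 10, Jurkat minus 6T-CEM, MYC differed by 0.80 ± 0.09 and MYCN by 1.56 ± 0.25 on the log2 scale. SH2D1A differed by -0.60 ± 0.13 in the same test, so the hairpin lowered it more in Jurkat. In 6T-CEM the response of SH2D1A at day 10 minus that at day 5 was 0.72 ± 0.13, a smaller fall at day 10.

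Of genes in the pathway lists, TFRC differed between lines by 0.71 ± 0.08 and between the days of 6T-CEM by -0.40 ± 0.08. KLF2 differed between lines by 1.28 ± 0.22, ITGAL by -0.47 ± 0.10, MYB by 0.75 ± 0.10, TCF7 by 0.63 ± 0.09, GATA3 by 0.54 ± 0.09 and TAL1 by 0.42 ± 0.08. Between the days of 6T-CEM, HK2 differed by 0.67 ± 0.11 and NOTCH3 by 1.24 ± 0.17. The 6T-CEM day 5 sh-SH2D1A libraries, which differ most from each other, enter each difference between the days of 6T-CEM.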

How the results depend on the processing

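Of 29 called member results, 456 of 511 alternatives kept direction and call, 55 kept the direction and lost the call, and 0 changed sign. Contrasts in the fit of 16 libraries weigh most here, with 21 or 22 alternatives each, many omitting a library outside the contrast. Calls within 1 line and day had 10 each. At Jurkat day 8 they were lost in 0 (MYC) to 6 (MNT) of these, and at 6T-CEM day 10 in 1 (MYCN) to 5 (MXD4). Of 70 uncalled results, 37 of 1217 alternatives gave a call and 51 another sign. The cause of these shifts was not tested, beyond fewer libraries or more genes by construction. With the DESeq2 Wald test, members called went to 2 in Jurkat day 10, 2 in 6T-CEM day 5 and 1 for the 6T-CEM difference between days, and genes called to 1118 in 6T-CEM day 5, 1561 between the days of Jurkat sh-NC, 443 for the difference between lines, and 62 and 602 for the differences between days in Jurkat and 6T-CEM. Without a filter on low counts, members went to 3 in Jurkat day 8, 0 in Jurkat day 10 and 0 in 6T-CEM day 10 by edgeR (2 at an unadjusted p under 0.05 in Jurkat day 10), and genes to 873, 0 and 1099, with 3 for the Jurkat difference between days. The stricter filter gave 2 members in Jurkat day 10 and moved MLX between the lines, uncalled, to -0.01. With all 16 libraries in the fit, members were 2, 3 and 1 and genes 1323, 3108 and 916 at Jurkat day 8 and at days 5 and 10 of 6T-CEM, respectively.

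Deviations of libraries with equal replicate numbers correlated across genes at 0.05 and 0.08 for Jurkat days 8 and 10. For 6T-CEM days 5 and 10 they correlated at 0.04 and 0.03. Such low values over all genes cannot exclude that these libraries are pairs. With the replicate block, members went to 3 in Jurkat day 10, 3 in 6T-CEM day 5 and 1 for the 6T-CEM difference between days. Genes went there from 721, 412 and 150 to 1423, 2188 and 297, and to 1237 between the days of Jurkat sh-NC. In Jurkat day 8 genes went from 2381 to 1797.

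Alternatives chosen after seeing the data left out the 6T-CEM day 5 libraries or changed the ratio. Without those libraries, members were 2 between the days of Jurkat sh-NC and 5 between lines, and genes 1939 between the days of Jurkat sh-NC, 470 for the difference between lines and 13 for the Jurkat difference between days. The ratio without MXD3 changed by 0.47, 0.77, 0.23 and -0.23.

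With each library left out in turn, the lone library of its arm being assumed to vary like the others, members ranged from 2 to 6 and genes from 633 to 2978 in Jurkat day 8, 1 to 3 and 557 to 979 in Jurkat day 10, 0 to 3 and 298 to 2865 in 6T-CEM day 5, and 1 to 4 and 2004 to 2225 in 6T-CEM day 10. Between days with sh-NC they ranged from 5 to 7 and 6505 to 9560 in 6T-CEM and 0 to 2 and 94 to 1614 in Jurkat, and between lines from 3 to 5 and 5722 to 9089. For the difference between lines they were 2 throughout and 67 to 373, for that between days 0 throughout and 0 to 7 in Jurkat and 0 to 2 and 24 to 1684 in 6T-CEM, and for the mean 5 to 6 and 4063 to 5925. Uncalled changes whose sign turned ranged as follows. MAX went from -0.12 to 0.07 in Jurkat day 8, -0.11 to 0.08 in Jurkat day 10, -0.03 to 0.15 for the difference between lines, -0.10 to 0.10 for the Jurkat difference between days and -0.03 to 0.02 for the mean. MXD4 went from -0.19 to 0.23 in 6T-CEM day 5, -0.05 to 0.37 and -0.09 to 0.06 for the differences between days in 6T-CEM and Jurkat, and -0.04 to 0.06 for the mean. MGA went from -0.25 to 0.08 in 6T-CEM day 5, -0.02 to 0.13 between the days of Jurkat sh-NC, -0.12 to 0.20 for the 6T-CEM difference between days and -0.01 to 0.07 for the mean. MNT went from -0.22 to 0.14 in 6T-CEM day 5 and -0.13 to 0.03 for the difference between lines, and MXD1 from -0.09 to 0.03 in 6T-CEM day 10. MXD3 went from -0.08 to 0.03 between the days of 6T-CEM sh-NC and -0.17 to 0.17 for the Jurkat difference between days. MLX went from -0.09 to 0.10 between lines and -0.04 to 0.55 and -0.04 to 0.15 for the differences between days in 6T-CEM and Jurkat, and MYCN from -0.15 to 0.10 between the days of Jurkat sh-NC. Counting error is small for the members, whose libraries held at least 269 counts each.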
